A study of Mus musculus with 3 samples.

Results

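MEIS2 peaks were examined at 9 genes, listed under ventral forebrain progenitors (Gsx1, Gsx2, Vax1 and Gli3) or radial glia (Nes, Vim, Fabp7, Slc1a3 and Ptprz1). The genes were taken by name, and a locus was the gene body plus 50 kb on each side in mm10. They are 9 of 21887 protein-coding genes in the annotation, and their loci held 37 of the 47809 reproducible peaks of the study. The libraries were made by CUT&Tag, in which an antibody directs a transposase to cut and tag DNA beside the bound protein. All cells came from the lateral ganglionic eminence (LGE) of wild-type CD1 mouse embryos at embryonic day 14.5, with 100000 cells per library. A pair of libraries, replicates 1 and 2, used a mouse polyclonal MEIS2 antibody, and 1 control library was made with no primary antibody. Of 72763762 to 79760948 tags per library, the peak caller kept 6337375 to 7618406 after allowing 1 per position. The share it dropped as redundant was 0.90 to 0.92. The labels do not say whether the replicates came from separate litters or how many embryos were pooled, so their spread may be technical. Peak tables carry no expression values, so the identity of the dissected tissue was not tested here, and a peak cannot tell strong binding in few cells from weak binding in many.

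MEIS2 is a homeodomain protein of the TALE class that binds DNA, often beside PBX proteins, and it is made in the LGE as its cells turn into striatal neurons. In the LGE, radial glia line the ventricle and divide to give neurons and glia. GSX2 and GSX1 are homeodomain factors that give these progenitors their ventral identity, VAX1 is a homeodomain factor of the ventral forebrain and optic stalk, and GLI3 is a zinc finger factor that acts in the hedgehog pathway, largely as a repressor. The radial glia genes encode working parts of the cell: the intermediate filaments nestin (Nes) and vimentin (Vim), the fatty acid binding protein FABP7, the glutamate transporter GLAST (Slc1a3) and the receptor tyrosine phosphatase PTPRZ1.

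Each of the 9 loci held at least 2 reproducible MEIS2 peaks, which are replicate 1 peaks that share at least 1 bp with a replicate 2 peak and none with a control peak. That is 9 of 9 loci, against 92.8% of all protein-coding genes, so that share is close to the background. Gli3 had 7 peaks, Nes 6, Gsx1 and Ptprz1 5 each, Gsx2 4, Vax1 and Slc1a3 3 each, and Vim and Fabp7 2 each. Of the 37 peaks, 7 had their summit within 1 kb of an end of the member gene, 4 lay within 1 kb of an end of a neighbouring gene, and 26 were distal to both. All 7 of the first kind were at the start site. By position, 10 summits lay inside the member gene, 15 upstream and 12 downstream of it. With −log10 q of at least 5 in every list the total was 24, with 2 at Gsx1, 1 at Vim and 0 at Vax1. That total includes MEIS2 sites at Fabp7 and Slc1a3 whose control peaks fell below the same cutoff. Taken from replicate 2 alone, clear of control peaks, Vim had 5 and Gsx1 8, and from replicate 1 alone Nes had 11.

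**Figure D1:**
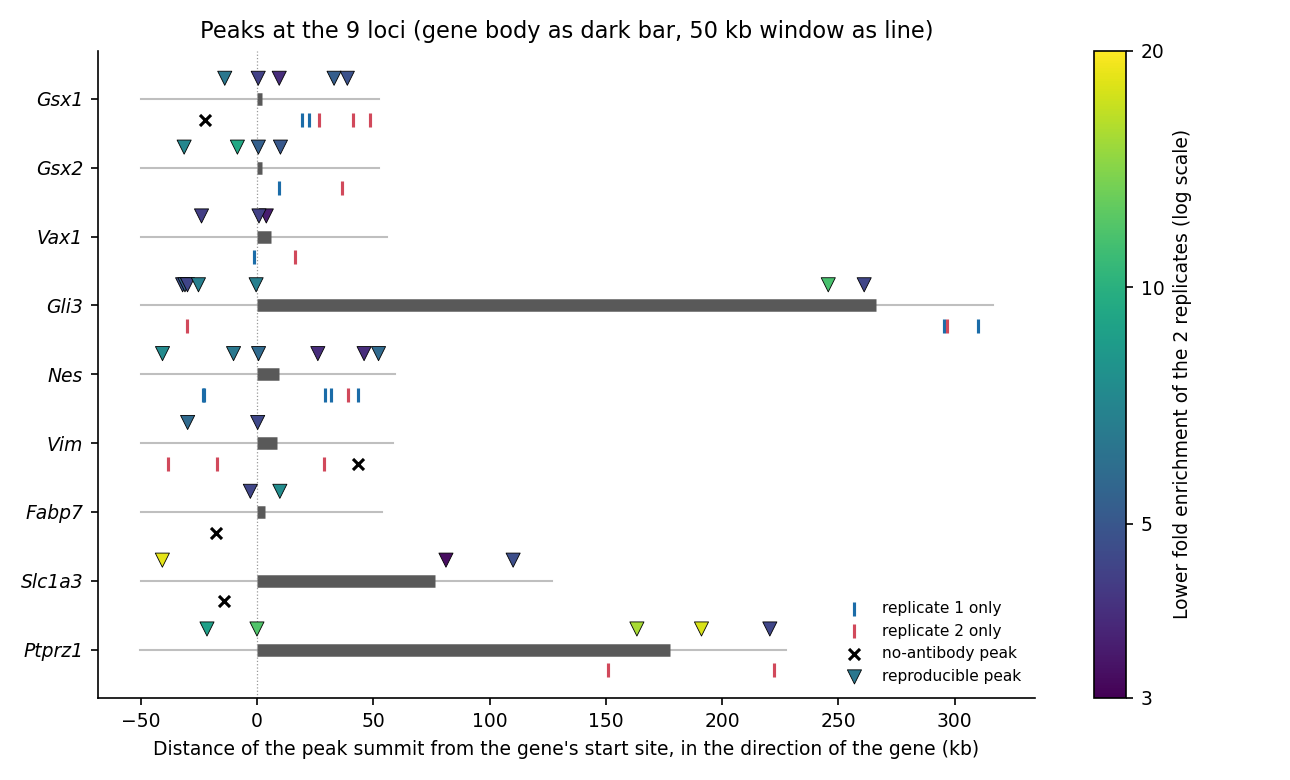
Peaks at the 9 loci, with the distance of each summit from the gene's start site in kb on the x axis, in the direction of the gene, and 1 row per gene. Triangles are the 37 reproducible peaks coloured by the lower of their 2 fold enrichments, bars below each line are peaks of 1 MEIS2 library alone, and crosses are the 4 control peaks (the MEIS2 peaks on top of them are not drawn). The brightest triangles are at Slc1a3 and Ptprz1, away from the start sites.

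The bases before the start sites are shown for the genes whose start peak reached into them and for both genes without a start peak. They come from a RefSeq promoter table of GRCm38.p6, the assembly behind mm10, which held all 9 genes. Each line gives the 250 bases before the start, 5′ to 3′ on the gene's strand, and capitals mark the bases covered by the replicate 1 peak. Ptprz1 is at chr6:22875252-22875501 (+), Gli3 at chr13:15463473-15463722 (+), Vim at chr2:13574061-13574310 (+), Gsx2 at chr5:75075351-75075600 (+), Nes at chr3:87970843-87971092 (+), Fabp7 at chr10:57784673-57784922 (+) and Slc1a3 at chr15:8710808-8711057 (−).
Ptprz1: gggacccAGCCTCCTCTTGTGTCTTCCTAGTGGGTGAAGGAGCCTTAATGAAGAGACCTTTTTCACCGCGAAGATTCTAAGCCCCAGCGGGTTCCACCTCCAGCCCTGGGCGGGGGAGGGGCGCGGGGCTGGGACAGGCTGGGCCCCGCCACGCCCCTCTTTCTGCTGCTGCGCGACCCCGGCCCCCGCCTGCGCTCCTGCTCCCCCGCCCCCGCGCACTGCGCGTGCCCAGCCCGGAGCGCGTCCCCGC
Gli3: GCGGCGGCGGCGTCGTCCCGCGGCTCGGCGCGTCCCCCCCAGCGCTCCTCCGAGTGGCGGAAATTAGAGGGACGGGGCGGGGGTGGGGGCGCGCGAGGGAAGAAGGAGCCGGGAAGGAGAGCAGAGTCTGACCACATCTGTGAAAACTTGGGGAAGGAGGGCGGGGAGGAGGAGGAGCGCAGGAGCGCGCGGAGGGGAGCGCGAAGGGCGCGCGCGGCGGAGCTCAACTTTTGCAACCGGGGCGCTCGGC
Vim: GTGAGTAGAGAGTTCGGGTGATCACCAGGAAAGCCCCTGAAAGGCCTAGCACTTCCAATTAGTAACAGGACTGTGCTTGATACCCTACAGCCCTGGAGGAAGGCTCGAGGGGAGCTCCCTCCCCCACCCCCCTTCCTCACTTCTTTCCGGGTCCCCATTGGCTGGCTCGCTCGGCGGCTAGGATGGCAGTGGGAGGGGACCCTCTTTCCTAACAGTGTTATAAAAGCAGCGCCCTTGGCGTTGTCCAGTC
Gsx2: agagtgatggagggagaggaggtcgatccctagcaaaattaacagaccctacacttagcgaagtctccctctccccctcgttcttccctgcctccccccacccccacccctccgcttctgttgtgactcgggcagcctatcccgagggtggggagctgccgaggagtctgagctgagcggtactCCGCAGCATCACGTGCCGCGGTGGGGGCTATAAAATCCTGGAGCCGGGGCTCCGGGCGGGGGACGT
Nes: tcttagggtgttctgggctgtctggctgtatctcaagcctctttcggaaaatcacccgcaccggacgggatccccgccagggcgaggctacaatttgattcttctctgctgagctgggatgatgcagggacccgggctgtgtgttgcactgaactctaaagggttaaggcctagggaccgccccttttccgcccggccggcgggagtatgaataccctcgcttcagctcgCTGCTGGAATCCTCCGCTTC
Fabp7: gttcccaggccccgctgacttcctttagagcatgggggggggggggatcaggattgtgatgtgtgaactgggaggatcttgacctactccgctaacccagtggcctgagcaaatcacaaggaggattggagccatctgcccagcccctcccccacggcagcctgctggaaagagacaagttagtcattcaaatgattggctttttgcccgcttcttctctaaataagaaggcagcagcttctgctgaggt
Slc1a3: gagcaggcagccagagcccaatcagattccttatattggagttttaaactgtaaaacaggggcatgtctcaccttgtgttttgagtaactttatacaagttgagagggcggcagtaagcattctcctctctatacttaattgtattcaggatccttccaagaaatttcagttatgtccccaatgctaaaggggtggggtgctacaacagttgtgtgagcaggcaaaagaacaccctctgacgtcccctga
The peak covered all 250 bases at Gli3 and Vim, 243 at Ptprz1, 66 at Gsx2 and 20 at Nes. At Gsx1 and Vax1 it covered 0, because the whole peak lay inside the gene. The core hexamer known for MEIS proteins, TGACAG, was searched on both strands of the 300 bases from 250 before to 50 after each start. It was in 0 of the 9 member windows and in 19.2% of all 32851 windows in the table, and the longer TGACAGNT was in 0 of 9 and 5.02%. Every TGACAGNT match is also a TGACAG match, and the search says nothing about sequence outside these windows.

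MEIS2 peaks lay at the start sites of 7 of the 9 genes: Gsx1, Gsx2, Vax1, Gli3, Nes, Vim and Ptprz1. Over all protein-coding genes, 52.4% carried a reproducible peak whose summit was at most 1 kb from either end, and the Wilson 95% interval for 7 of 9 ran from 45.3% to 93.7%, which includes that share. Over start sites alone, 52.1% of the table's entries for protein-coding genes had one. No control peak had its summit within 1 kb of an end of any member, and 0.27% of protein-coding genes had one. Values for each peak are the caller's fold enrichment over the local background and the pileup, a count of the extended tags that cover the summit, which does not allow for depth.

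Among the genes listed under ventral progenitors, Gli3 had the widest start peak, 1506 bp at chr13:15462966-15464471. Its fold enrichment was 8.08 in replicate 1 and 6.75 in replicate 2, with pileups of 31 and 18. Gsx2, the main determinant of LGE progenitor identity among these genes, had a start peak at chr5:75075535-75076344 with a fold enrichment of 8.35 in replicate 1 and 5.32 in replicate 2 and pileups of 21 and 10. In replicate 2 this region was called as 2 narrower peaks. With 50% reciprocal overlap required, the Gsx2 start peak was no longer counted as reproducible. Gsx1, its close relative, had a weaker start peak at chr5:147188755-147189368, with fold enrichments of 5.87 and 4.33 and pileups of 20 and 10. Vax1 had the lowest of the 7 in replicate 1, at chr19:59169136-59169673, with fold enrichments of 4.31 and 5.24 and a pileup of 14 in both replicates. The start peaks of Gsx2, Gsx1 and Vax1 were lower than those of most genes with a peak at an end. The lower of their replicate folds exceeded 29.1%, 9.57% and 9.41% of such genes, against 58.3% for Gli3.

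Among the radial glia genes, Ptprz1, which encodes a receptor phosphatase with a long extracellular chain that carries proteoglycan sugars, had by these values the strongest start peak. The peak at chr6:22875259-22875955 had a fold enrichment of 11.9 in replicate 1 and 14.0 in replicate 2, with a pileup of 25 in both. It ranked first of the 7 start peaks by fold in each replicate, and its lower fold exceeded that of 99.6% of genes with an end peak. Nes had a start peak at chr3:87971073-87971900, with fold enrichments of 6.77 and 5.73 and pileups of 18 and 13. Vim had one 1276 bp wide at chr2:13573802-13575077, with fold enrichments of 7.103 and 4.54 and pileups of 16 and 7. The lower folds of Nes and Vim exceeded only 35.7% and 14.5% of genes with an end peak. The order by the lower fold was Ptprz1, Gli3, Nes, Gsx2, Vim, Gsx1 and Vax1. The Ptprz1 values did not overlap those of Gli3, the next in order, whereas each later pair of neighbours in that order had overlapping ranges between replicates. With 2 libraries per peak these orders carry no test.

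Fabp7 and Slc1a3 had no reproducible peak at either end, nor a peak of a single MEIS2 library there. Fabp7, whose protein carries fatty acids in radial glia, had its nearest reproducible peak 2.86 kb before the start, at chr10:57781951-57782231, with fold enrichments of 5.88 and 4.46 and pileups of 9 and 6. Slc1a3, which clears glutamate in radial glia and astrocytes, had no reproducible peak anywhere inside its 76684 bp. The distance that counts as a start matters for the others: at 0.5 kb, 3 of 9 genes kept a start peak (Gli3, Vim and Ptprz1), against 43.2% of protein-coding genes. With −log10 q of at least 5 there were 4 (Gli3, Gsx2, Nes and Ptprz1), against 40.4%.

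The summits of most start peaks lay after the start, as did most summits over all protein-coding start sites. In replicate 1 the summit was 522 bp after the start in Gsx1, 587 bp in Gsx2, 668 bp in Nes and 847 bp in Vax1. Vim followed at 283 bp, while Ptprz1 and Gli3 had summits 17 bp and 375 bp before the start. The annotated Ptprz1 gene begins upstream of the start used here, so the Ptprz1 summit still lay 170 bp inside the gene. Of all 11075 start sites with a reproducible summit within 1 kb, 68.3% had it after the start, the median was 96 bp after it, and 8.36% had it 500 bp or more after it. The 4 genes past 500 bp in replicate 1 are 3 homeobox genes and Nes. In replicate 2 the summits lay 358 bp after the start in Gsx1, 524 bp in Nes, 994 bp in Vax1 and 191 bp in Vim, and 17 bp before it in Ptprz1 and 530 bp before it in Gli3. Of the 2 replicate 2 peaks of Gsx2, the one of higher fold had its summit 73 bp before the start, and the other lay 584 bp after it. The side of the start was thus shared by both replicates in 6 of the 7 genes, and Gsx2 had a replicate 2 peak on each side.

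**Figure D2:**
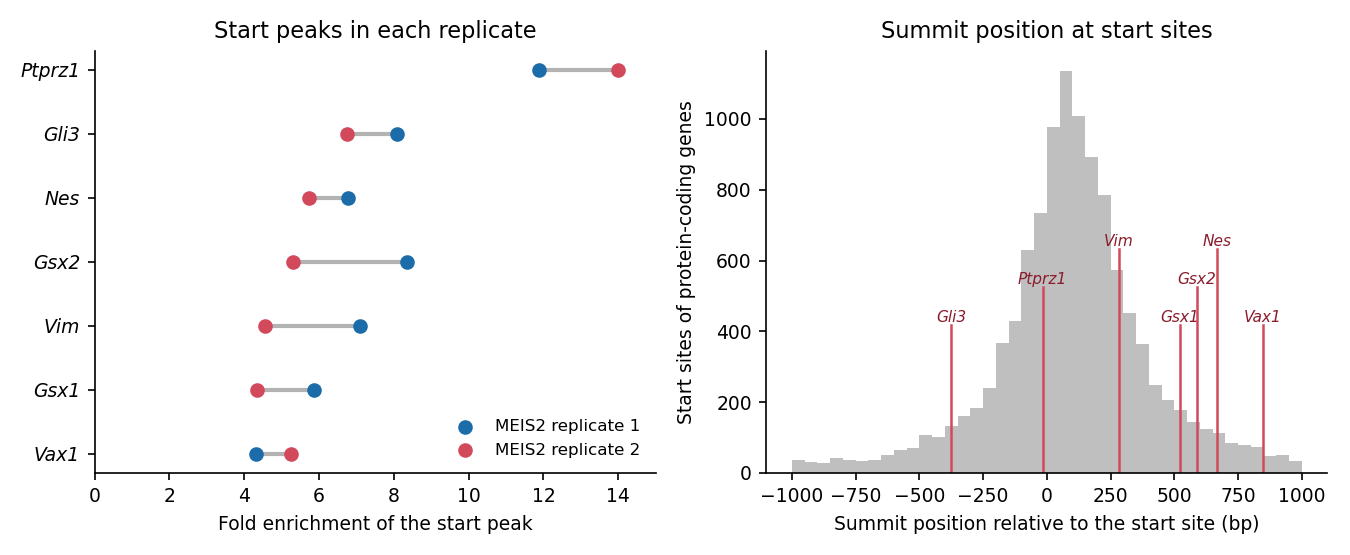
Left, fold enrichment of the 7 start peaks in each MEIS2 replicate (points, joined by a line), in the order of the lower value. Right, summit position of replicate 1 relative to the start site in bp, as counts of protein-coding start sites in 50 bp bins (grey) with the 7 genes as red lines. Ptprz1 stands apart on the left at 11.9 and 14.0, and Gsx1, Gsx2, Nes and Vax1 lie more than 500 bp to the right of the start.

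The 2 genes without a start peak had promoter windows with few CpG dinucleotides. The Slc1a3 window had a GC content of 45.3% and 3 CpGs, and the Fabp7 window 54.0% and 6 CpGs. The 7 windows of the other genes held 11 CpGs (Vim) to 39 (Gli3), with GC contents from 47.7% (Vax1) to 71.7% (Ptprz1). By GC content alone the groups overlapped, since Vax1 lay below Fabp7, but by CpG count they did not. Over the 21263 windows of protein-coding genes, the share with a start peak rose with GC content, from 8.43% in the lowest quintile to 24.8%, 50.7%, 81.6% and 97.3% in the highest. Slc1a3 falls in the lowest quintile and Vax1 in the second. Fabp7 falls in the third together with Gsx1, Nes and Vim, which have start peaks. Gsx2 is in the fourth, and Gli3 and Ptprz1 are in the highest. How far base composition bears on the start peaks of these genes was not tested.

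**Figure D3:**
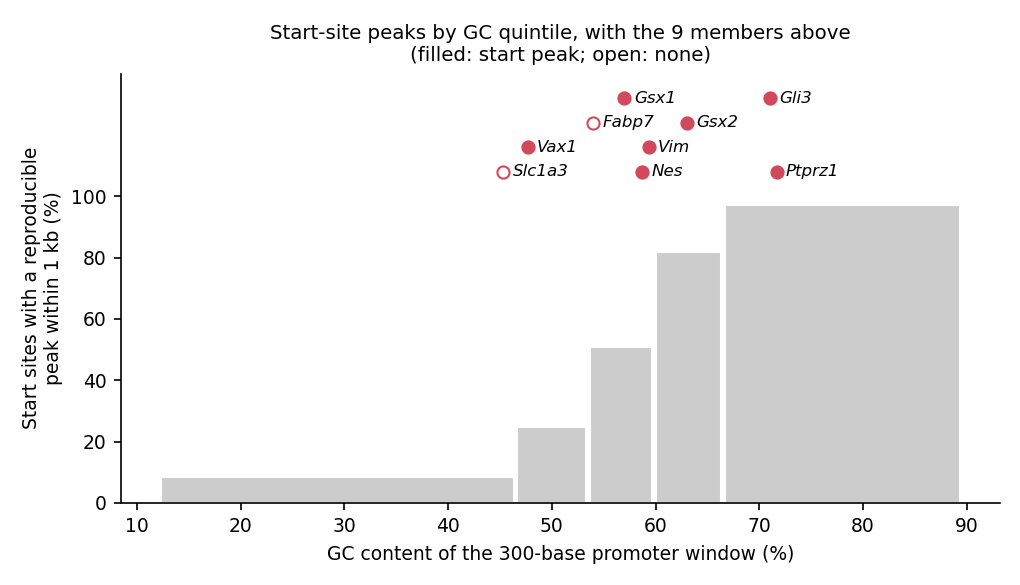
Share of protein-coding start sites with a reproducible peak within 1 kb (y axis, %) in quintiles of promoter windows by GC content (x axis, %), with the 9 genes placed above the bars at their own GC content. The bars rise from 8.43% to 97.3%, and the open circles are Slc1a3, over the lowest bar, and Fabp7, over the middle bar with Gsx1, Nes and Vim.

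Away from the start sites, the strongest peaks of all 9 loci were at Slc1a3 and Ptprz1. At Slc1a3, a peak 40.7 kb upstream at chr15:8751343-8751664 had a fold enrichment of 19.0 in replicate 1 and 18.5 in replicate 2, with pileups of 35 and 33. Its lower fold exceeded that of 99.1% of reproducible peaks. The other Slc1a3 peaks were downstream and weak: chr15:8600591-8600960 had 4.70 and 6.38, and chr15:8629550-8629732 had 4.12 and 3.19. At Ptprz1, a peak 13.7 kb beyond the gene's far end, at chr6:23066266-23066781, had 18.9 and 17.9, with pileups of 56 and 51, the highest of the 37. It was nearer to an end of Aass, a gene of lysine breakdown, at 5576 bp. A peak inside Ptprz1, at chr6:23038671-23039021, had 15.6 and 20.4 with pileups of 27 and 32. Both therefore stood high in both replicates. A peak 21.3 kb before the gene, at chr6:22853818-22854224, had 15.6 in replicate 1 but 8.75 in replicate 2. The last, at chr6:23095846-23096129, had 7.64 and 4.46. It lay 43.1 kb beyond the gene's far end and nearer to Aass, at 23813 bp.

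Gli3 had a group of 4 peaks upstream of the gene, within 7133 bp. They lay at chr13:15431558-15431882, chr13:15432614-15433185, chr13:15433715-15433935 and chr13:15437984-15438690, between 25.2 and 32.0 kb before the start. Their fold enrichments were 5.06 to 7.53 in replicate 1 and 4.41 to 6.76 in replicate 2. The medians over all reproducible peaks were 7.26 and 6.38, and only the peak at chr13:15437984-15438690 was above them. The pileups of the 4, which do not allow for the local background, were 22 to 33 and 17 to 21. These were above the medians of 17 and 12 over all reproducible peaks. Inside the 266304 bp of Gli3 only 2 reproducible summits lay, both toward the far end. The one at chr13:15709225-15709448 had 11.8 and 11.5, with pileups of 19 and 17, which agree closely between replicates. The one at chr13:15724599-15724968 had 8.45 and 4.46.

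The Gsx genes each had an upstream peak with a higher fold enrichment than the start peak in both replicates. For Gsx2 it lay 8.43 kb before the start at chr5:75066999-75067502, with fold enrichments of 9.84 and 9.38 and pileups of 19 and 14. For Gsx1 it lay 13.9 kb before the start at chr5:147174683-147175224, with 8.80 and 6.38 and pileups of 14 and 9. By pileup, which does not allow for the local background, the Gsx1 start peak was above the upstream peak in both replicates, and the Gsx2 start peak was above its upstream peak in replicate 1 only. Downstream peaks were lower: 6.64 and 5.02 at chr5:75085530-75085796 beyond Gsx2, and 3 peaks beyond Gsx1 with 4.47 to 6.40 in replicate 1 and 3.83 to 5.68 in replicate 2. Vax1 had a second peak inside the gene at chr19:59166325-59166563 (3.50 and 4.10), and 1 lay 23.9 kb before the start at chr19:59193909-59194392 (6.86 and 4.25).

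At Fabp7, Vim, Nes and Gsx2, 1 peak each lay at an end of a neighbouring gene. The strongest reproducible peak of the Fabp7 locus, chr10:57794605-57795093 with 12.8 and 7.503, had its summit 203 bp from an end of Smpdl3a. At Vim, the only peak besides the start peak, chr2:13544317-13544667 with 8.82 and 5.74, was 314 bp from an end of Trdmt1, a gene for an RNA methyltransferase. At Nes, chr3:87929883-87930704 with 8.87 and 7.38 was 153 bp from an end of Isg20l2. Near Gsx2, chr5:75043854-75044799 with 8.30 and 7.22 was 365 bp from an end of Chic2. Of the remaining Nes peaks, 1 lay 10.1 kb before the start (chr3:87960712-87961112, 7.39 and 6.40), nearer to an end of Crabp2, at 7631 bp. The other 3 lay beyond the gene and were all nearer to Bcan or Hapln2, which encode parts of the brain's extracellular matrix. Vim, without its neighbour's peak, had no distal reproducible peak.

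Set against all reproducible peaks, those at the 9 loci were of ordinary height apart from these few. Their median fold enrichment was 7.103 in replicate 1 and 5.68 in replicate 2, against 7.26 and 6.38 over the whole set. By the lower fold, 5 of 37 exceeded 90% of reproducible peaks, namely 3 at Ptprz1, 1 at Slc1a3 and 1 at Gli3, and 23 lay below the median of 5.94. Replicate 1 gave the higher fold at 30 of the 37 peaks, and at 66.7% of all reproducible peaks. The log2 ratio of replicate 1 to replicate 2 ranged from -0.44 to 0.92 at these peaks, and its SD over the whole set was 0.39. Across the 37 peaks, which share the same pair of libraries, the Spearman correlation of the folds was 0.796.

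**Figure D4:**
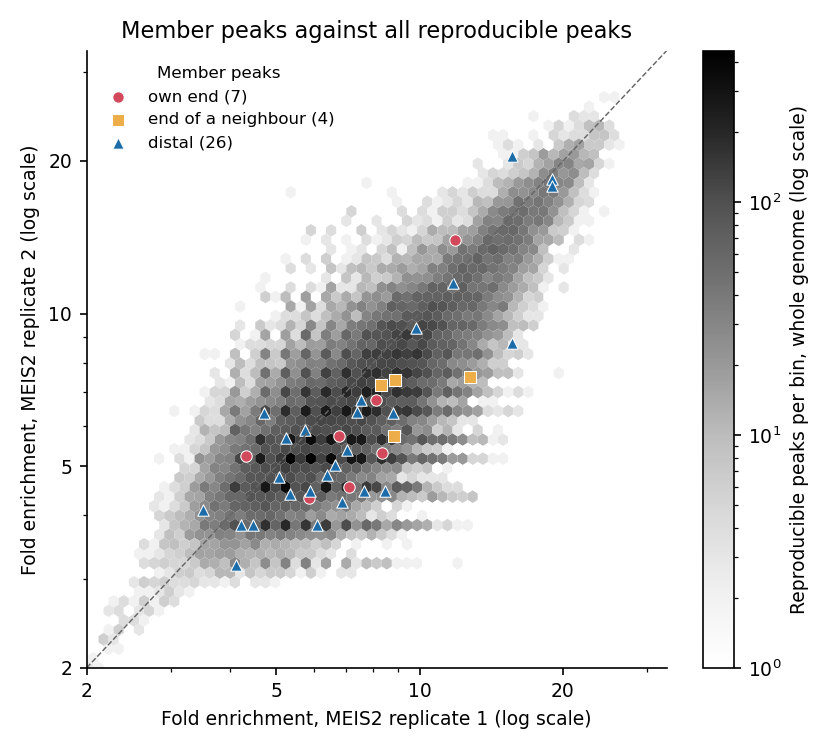
Fold enrichment of reproducible peaks in MEIS2 replicate 1 (x axis) and replicate 2 (y axis), both on log scales, with the whole set as grey bins and the 37 peaks of the 9 loci by position: 7 at an end of the member, 4 at an end of a neighbour and 26 distal. Distal points reach the upper right near 19.0 and 18.5, and most others lie under 10 in both.

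Peak density differed among the 9 genes and lay within the range of other genes. Per 100 kb of gene plus flanks, Nes had 5.49 reproducible peaks, Gsx1 4.89, Gsx2 3.91 and Vax1 2.83, all above the protein-coding median of 2.71. Fabp7 had 1.93, Gli3 1.91, Vim 1.84, Ptprz1 1.80 and Slc1a3 1.70, all below it. The median of the 9 was 1.93. All 9 loci lay within the 5th to 95th percentiles of protein-coding genes, from 0 to 8.11, and Nes was highest at a density above that of 82.9% of genes. Its window touches 6 other protein-coding genes, while those of Gsx1, Gli3 and Slc1a3 touch none. Slc1a3 and Ptprz1 thus combined a low number of peaks per length with the strongest single peaks.

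**Figure D5:**
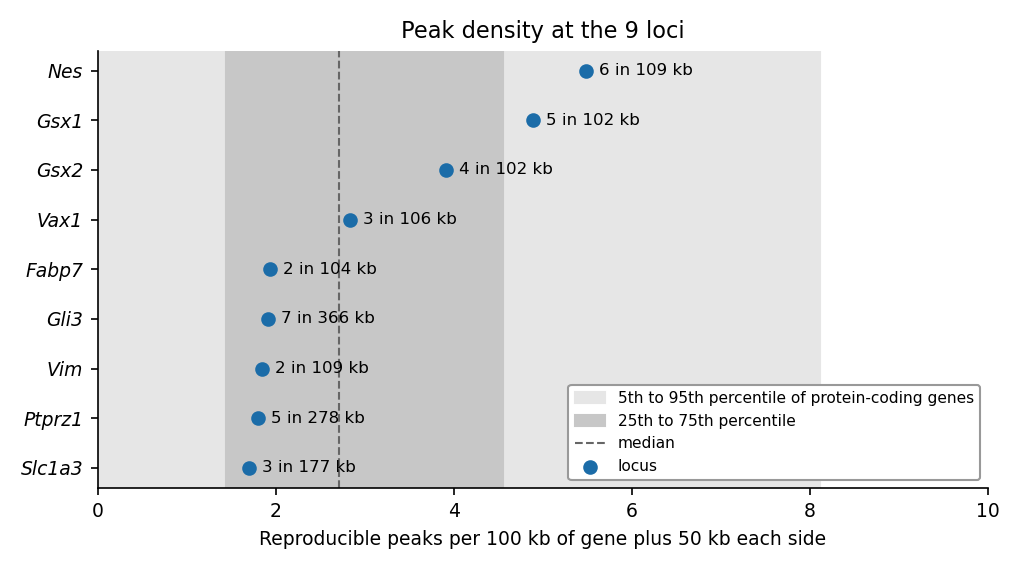
Reproducible peaks per 100 kb of gene plus 50 kb on each side for the 9 loci (points, with the peak count and window length written beside them), over the percentile ranges of protein-coding genes (shaded; dashed line, the median of 2.71). Nes, Gsx1, Gsx2 and Vax1 lie right of the median, and the other 5 lie left of it.

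The replicates shared most but not all of their peaks at these loci. Replicate 1 had 52 peaks there and replicate 2 had 54. Of the replicate 1 peaks, 40 of 52 overlapped a replicate 2 peak (76.9%, Wilson 95% interval 63.9% to 86.3%), against 67.0% of all replicate 1 peaks. Reproducible by the full rule were 37 of the 52, against 61.2% in the whole library. Peaks of a single MEIS2 library, clear of the control, numbered 11 in replicate 1 and 13 in replicate 2, and 5 of the 11 were at Nes. Fabp7 and Slc1a3 had none of either kind. The highest of them was inside Ptprz1 in replicate 2, with a fold enrichment of 12.8 and a pileup of 19, and replicate 1 had no peak there.

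The control library had 4 peaks at these loci, 1 each at Gsx1, Vim, Fabp7 and Slc1a3, so 4 of 9 loci held one, against 26.6% of protein-coding genes. All 4 lay on peaks of replicate 1 and 3 also on peaks of replicate 2, and they lay 14.0 to 43.2 kb from the start sites. The MEIS2 peaks on them are left out of the reproducible set. With a single control library, no spread is known on that side.

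Other progenitor genes also carried peaks at their ends. Of 20 further radial glia and neural stem cell genes, 14 carried a reproducible peak at an end (70.0%), and of 14 genes of ventral patterning and the hedgehog pathway 10 did (71.4%), against the 52.4% of protein-coding genes. The strongest were Ddah1, an enzyme that clears methylated arginine, with fold enrichments of 7.97 and 10.8, and Smo, the hedgehog signal transducer, with 9.16 and 7.83. They were followed by Mki67, a marker of dividing cells, with 7.82 and 6.23, and Notch1, the receptor that holds radial glia undifferentiated, with 6.06 and 8.15. The Ptprz1 start peak had a higher fold than each of these 4 in both replicates. Among the 10 without an end peak were Ccnd2, Dlx1, Hes1 and Hopx, the first in alphabetical order. All 34 genes had at least 1 reproducible peak in their loci, and their median density was 3.87 per 100 kb, above the 1.93 of the 9 genes. At a distance of 2.5 kb 29 of the 34 had an end peak, against 60.7% of protein-coding genes. At 0.5 kb 16 of the 34 did, near the background of 43.2%. The 34 genes were listed with earlier results of these data known, and base composition was not compared for them.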

How the data were processed

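The data were 3 peak tables, 1 per CUT&Tag library (MEIS2 replicates 1 and 2, and 1 library with no primary antibody), grouped by the antibody label. Per the file headers, the authors called peaks in each library separately with MACS 2.2.7.1, without a control file, at a q cutoff of 0.05, keeping 1 tag per position and not using read pairs. Bowtie2 2.3.4, Trimmomatic, Picard, the build mm10 and another MACS2 version, 2.1.4, are listed in the submitters' processing notes. As deposited, pileup is a signal without depth scaling, and fold enrichment is a ratio to the local background. Both −log10 columns, of the p-value and of the q-value, are deposited as the caller gave them for each library.

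Overlaps were computed in Python 3.11.15 with pandas 2.3.3 on chromosomes 1 to 19, X and Y, after tests on simulated intervals. Where a replicate 1 peak overlapped several replicate 2 peaks, the one of highest fold was used. Genes and start sites came from RefSeq tables of GRCm38.p6. Exons and introns are not in these tables. No test over samples was possible with peaks called per library and 1 control, so lists are given as counts beside all protein-coding genes. Wilson intervals cover counting error only, and the libraries kept 6337375 to 7618406 tags.

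The 9 genes and the lists were chosen with earlier results of these data known. The rule for named genes took all 9, the neighbours with a peak within 1 kb of an end, and, of the other 34 progenitor genes, the 4 with the strongest end peak and the first 4 without one. Aass, Bcan, Crabp2 and Hapln2 were added after their values were seen. Alternatives were a −log10 q of 5 or more, 50% reciprocal overlap, the 5000 top peaks by fold, each MEIS2 replicate left out, windows of 20 and 100 kb, end distances of 0.5 and 2.5 kb, no removal of control peaks, and summits in place of whole peaks. Start sites of the promoter table alone were added after seeing the data.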

Additional observations from a re-analysis of the deposited data

How the results depend on the processing

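The 37 reproducible peaks became 36 with 50% reciprocal overlap, 40 without removal of control peaks, 37 by summit and 53 with 100 kb on each side. The 50% rule also held for overlap with control peaks, so Fabp7 rose from 2 to 3 with its site on a control peak. Gsx2 fell from 4 to 3 and Vax1 from 3 to 2. The total became 24 with −log10 q of at least 5, 4 with the 5000 peaks of highest fold in each list and 21 with 20 kb on each side. The q and 5000-peak cutoffs also thinned the control list, so MEIS2 sites on weaker control peaks came back in. The 24 thus include such sites at Fabp7 and Slc1a3, whose control peaks had −log10 q of 2.85 and 2.72. The 4 include the Fabp7 site. Leaving out a MEIS2 replicate gave 48 to 51. The 7 genes with a peak within 1 kb of an end stayed 7 without replicate 1, without replicate 2, at 2.5 kb and with start sites alone, and became 6 with 50% reciprocal overlap, 4 with −log10 q of at least 5, 3 at 0.5 kb and 0 with the 5000 peaks of highest fold. The share of protein-coding genes, 52.4%, moved as well, to 55.3% without replicate 1, 60.4% without replicate 2, 60.7% at 2.5 kb, 45.4% with 50% reciprocal overlap, 40.4% with −log10 q of at least 5 and 43.2% at 0.5 kb. With the 5000 peaks of highest fold, 0 of the 34 other progenitor genes had an end peak, as did 0.119% of protein-coding genes. Otherwise the other progenitor genes ranged from 16 to 29, with 26 to 27 when a replicate was left out. Peaks per 100 kb of summed windows were 2.55, and 2.301 and 2.25 with 20 and 100 kb on each side. The 4 control peaks became 2 with −log10 q of at least 5, and the share of replicate 1 peaks with a partner, 76.9%, became 59.5% there, where each list holds fewer peaks, and 73.1% with 50% reciprocal overlap. By locus, leaving out replicate 1 moved Vim from 2 to 5 peaks and Gsx1 from 5 to 8, and leaving out replicate 2 moved Nes from 6 to 11. No paired analysis was possible because the control has 1 library and each result is a count of peaks, not a test.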

Other observations

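The strongest MEIS2 site within 50 kb of Fabp7 is not in the reproducible set, because a weak control peak lies on it. At chr10:57766652-57767391, 17.7 kb before the start, replicate 1 had a fold enrichment of 14.7 and a pileup of 87, and replicate 2 had 14.5 and 77. The control peak there had 4.09 and 11. Per 1000000 tags kept, the pileups were 11.4, 11.7 and 1.74, so the lower MEIS2 value was 6.58 times the control. Of the 4518 control peaks that overlapped peaks of both MEIS2 libraries, the median of that lower ratio was 2.88, and the Fabp7 site exceeded 99.5% of them. It was picked after its values were seen and carries no test.

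The site 43.2 kb from the Vim start gave pileups per 1000000 tags of 11.0, 12.7 and 3.63, a lower ratio of 3.04, and the one 14.0 kb from the Slc1a3 start gave 2.63, 4.27 and 1.26, a lower ratio of 2.08. At Gsx1 the control fold of 7.82 was near the 9.77 of replicate 1, with pileups per 1000000 tags of 2.05 and 2.1002, and replicate 2 had no peak. Tags were extended to 172 and 162 bp in the MEIS2 libraries and to 233 bp in the control, and the pileups were not rescaled for that length.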
